A study of Homo sapiens with 3 samples.

Results

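The genes examined here hold cells to one another and to the extracellular matrix. They are the cadherins, protocadherins, alpha- and beta-catenins, integrins, laminins and collagens, together with fibronectin (FN1), agrin (AGRN), perlecan (HSPG2), the nidogens (NID1, NID2) and SPARC. Members were chosen by gene symbol alone: the first gene name of a deposited editing cluster had to match one of these families, and PCDH11Y was left out. This gave 100 clusters in 30 genes, of 40843 clusters in 9109 genes in all. A table of RefSeq protein-coding genes (GRCh38.p14) holds 184 symbols of the same pattern. Of these, 30 (16.3%) were the first name of a cluster in some replicate, and 154 were not and have no value here. Of all 20056 protein-coding symbols in that table, 38.2% were the first name of a cluster. Genes named later in a label count as having none, among them other gamma protocadherins that share the clusters listed under PCDHGA10. Symbols were matched by their current spelling, so a gene listed under an older name counts as having none. The pattern also takes ITGB3BP, which is no integrin but an integrin-binding protein that is also known as the centromere protein CENP-R, and it is described on its own.

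The data come from 3 biological replicates of 1 condition, HEK293T cells (line HEK293XT, wild type, of human embryonic kidney origin) in which doxycycline induced the RBFOX2-APOBEC1 fusion for 72 h. The fusion joins RBFOX2, an RNA-binding protein that regulates splicing, to the cytidine deaminase APOBEC1, so that C bases near bound RBFOX2 are converted to U and read as T. There is no cell population without the fusion, so a value describes editing in these cells and not a difference from a background. Where p-values are given they come from sign-flip tests of the difference between member and other clusters, taken within each of these 3 samples. Such a p-value cannot fall below 0.25. The treatment is labelled as transient transfection, while the growth protocol speaks of stable lines. FLARE tests windows of 30 bases for more edited C bases than a Poisson background gives, and joins windows that pass into clusters. Edit fraction here means edited bases as a percentage of the C bases covered by reads, summed over a cluster. Windows that did not pass were not analysed here, so a gene without a cluster in a replicate may still be expressed and edited there.

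Cadherins are calcium-dependent adhesion receptors whose cytoplasmic tails bind beta-catenin, and alpha-catenin links that complex to actin. Integrins are heterodimers of an alpha and a beta chain that bind matrix proteins such as fibronectin and laminin. Laminin trimers and type IV collagen form the networks of the basement membrane, which nidogen, perlecan and agrin join. Kidney epithelia rest on such a membrane. RBFOX proteins bind GCAUG motifs in introns and in mature transcripts. The cluster sequences are not printed, because a genome of the files' build, hg19, was not used here.

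Replicates 1, 2 and 3 held 38, 35 and 27 member clusters, or 33.3 ± 5.69 (SD, n = 3), in 18, 19 and 16 genes. They make up 0.266%, 0.231% and 0.238% of the clusters of each replicate. The clusters hold 2558, 1533 and 1284 reads and 194, 108 and 145 edited bases, which are 0.192%, 0.0968% and 0.188% of the edited bases in all clusters. The read totals cover called clusters alone and do not give library depth, and each replicate held between 11367 and 15181 clusters in all. Replicate 3 had the fewest clusters in all and among the members, but replicate 2 had the fewest edited bases among the members. The mean read depth of a member cluster ranged from 3.59 to 269.6, with a median of 17.0, 20.02 and 22.9 in replicates 1, 2 and 3. Intervals given below are Wilson 95% intervals. They cover counting error only, and those of edit fractions treat each covered C base as a separate trial. Edits that share a read, or reads copied by PCR, need not come from separate molecules, so these intervals can be too narrow.

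Of the 11 genes checked for cell identity, CDH2, NEFL, NEFM, PAX2 and ENO2 were listed for HEK293, a kidney-derived line with neuronal features. Among these, NEFL, NEFM and ENO2 had clusters in all 3 replicates, CDH2 in replicate 2 only and PAX2 in none. Of all genes with a cluster, 38.3% had clusters in all 3 replicates. EPCAM, an epithelial gene, had 1 cluster, in replicate 2. The epithelial gene CDH1, the fibroblast genes COL1A1, COL1A2 and COL3A1 and the blood marker PTPRC had none. A cluster shows that a transcript was covered and that editing was called there, and its absence does not give a level.

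**Figure D1:**
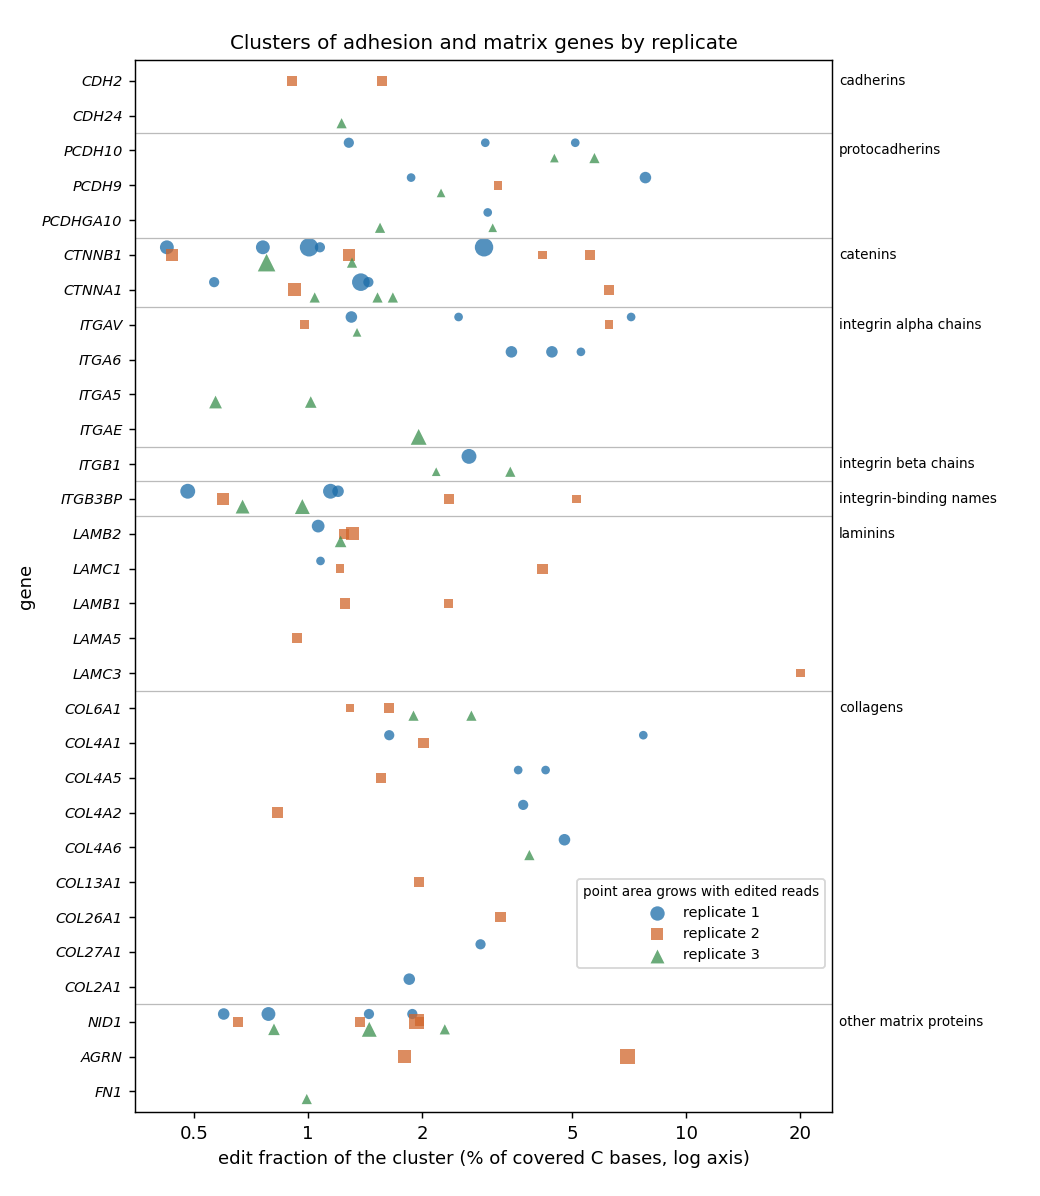
Each point is 1 cluster of an adhesion or matrix gene, with its edit fraction (% of covered C bases, log axis) on the horizontal axis and its gene, grouped by family, on the vertical axis; colour and shape give the replicate and point area grows with the number of edited reads. The points lie between 0.424% (CTNNB1) and 20% (LAMC3, 1 edited base), and CTNNB1 and NID1 hold 11 clusters each.

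Summed over replicates, catenins held more edited bases than any other family, with 68, 21 and 29 in replicates 1, 2 and 3. That order held in replicate 1 only, since the 6 matrix genes outside the families held 31 in replicate 2 and the integrin alpha chains 42 in replicate 3. CTNNB1 and CTNNA1 were the 2 catenin genes with clusters, of 4 symbols in the pattern, and held 19 clusters and 118 of the 447 edited bases (26.4%). CTNNB1, which encodes beta-catenin, an adaptor at cadherin junctions and the effector of Wnt signalling, had 48, 14 and 22 edited bases in replicates 1, 2 and 3. Summed over replicates this was 18.8% of the member edited bases, the largest share of the 30 genes, although NID1 held more in replicate 2 (21) and ITGAE in replicate 3 (30). All 11 CTNNB1 clusters lay in 1 exon, numbered 38 in the deposited labels, within 990 bases on the plus strand of chromosome 3 (41280820 to 41281809). Exon numbers in the labels never fell with rising coordinate in 28156 steps between neighbouring exonic clusters of a gene. Higher numbers thus lie further towards the 3′ end on the plus strand, and exon 0 is the 3′-most exon on the minus strand.

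The CTNNB1 clusters form 7 loci, a locus being a set of same-strand clusters joined wherever they share a base. Of all 33244 loci, 4.77% were found in all 3 replicates and 16.6% in at least 2. A lack of shared loci in a single gene or family is thus the usual outcome. The locus from 41281225 to 41281404 was found in all 3 replicates, with an edit fraction of 1.01% in replicate 1 (11 of 1093 covered C bases), 0.437% in replicate 2 (5 of 1144) and 0.777% in replicate 3 (20 of 2573). Replicate 2 was lowest, and the Wilson intervals, from 0.563% to 1.79%, 0.187% to 1.02% and 0.504% to 1.20%, have values in common. The clusters of replicates 1 and 2 do not overlap each other there and meet through the longer cluster of replicate 3, which holds 25 C bases against 11 and 5.

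A further CTNNB1 locus, from 41281495 to 41281584, reached 2.92% in replicate 1 (23 of 788), 1.28% in replicate 2 (4 of 312) and 1.31% in replicate 3 (2 of 153). Replicates 2 and 3 were close to each other and below replicate 1, and the intervals share the values from 1.95% to 3.25%. Its mean over replicates was 1.84% ± 0.938 (SD, n = 3), against 0.740% ± 0.286 at the locus upstream. Mean read depths in replicates 1, 2 and 3 were 80.7, 53.7 and 37.7 here, against 138.3, 257.6 and 167.0 upstream. Edit fraction falls with depth among these clusters, and the difference between the 2 loci was not tested. Both loci had their highest value in replicate 1. The remaining 5 CTNNB1 loci were each called in 1 replicate, and their edit fractions ran from 0.424% at a depth of 269.6 (replicate 1) to 5.56% at a depth of 11.2 (replicate 2).

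CTNNA1, which encodes alpha-E-catenin, had a cluster in every replicate without any locus found in all 3. It held 20, 7 and 7 edited bases, and 6 of its 8 clusters lay in the exon numbered 75, on the plus strand of chromosome 5. Clusters of replicates 1, 2 and 3 lay side by side there, from 138269837 to 138269881, 138269897 to 138269956 and 138269957 to 138270001. The gap was 15 bases between the first pair and 0 bases between the second, and the edit fractions were 0.565%, 0.919% and 1.68%. After a gap of 465 bases a similar group followed, in which clusters of replicates 3 and 1 overlapped and that of replicate 2 began at the next base. The deepest of these, from 138270482 to 138270556 in replicate 1, had 12 edited bases in 9 edited reads, an edit fraction of 1.38% (interval 0.791% to 2.40%).

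**Figure D2:**
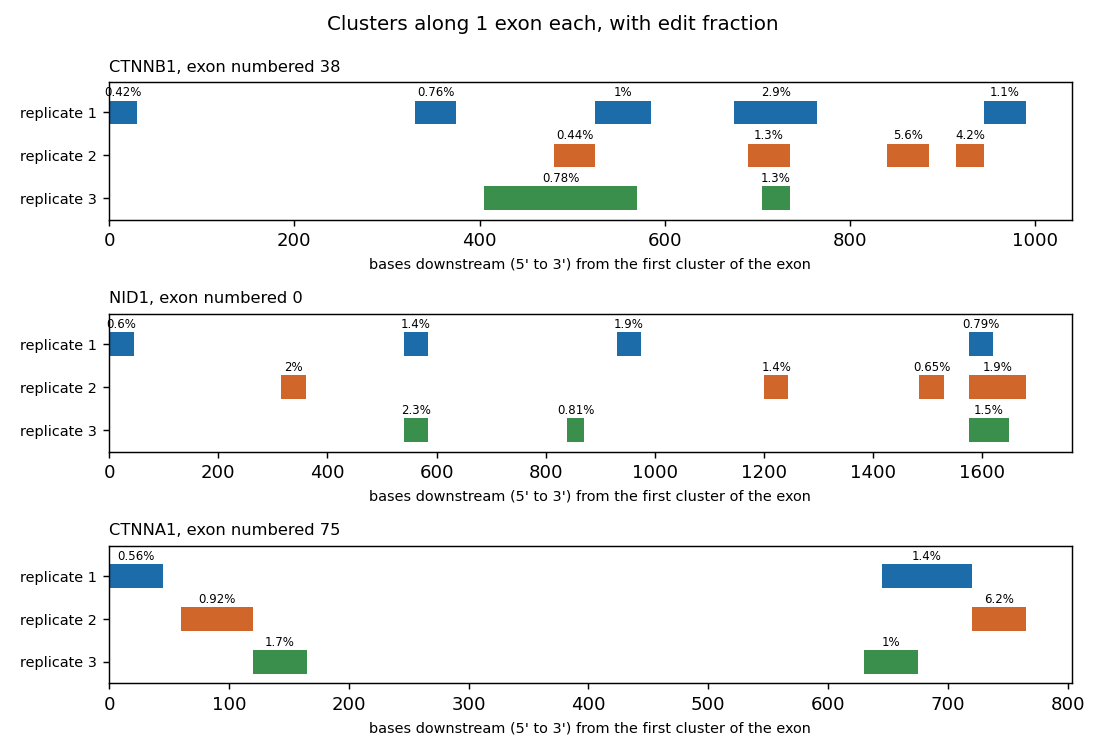
Clusters along 1 exon each of CTNNB1, NID1 and CTNNA1, placed by their distance in bases downstream of the first cluster, with 1 row and colour per replicate and the edit fraction above each bar. CTNNB1 has 2 groups of overlapping clusters that hold all 3 replicates and NID1 has 1, and in CTNNA1 the first group holds 3 clusters at gaps of 15 and 0 bases, while in the next group those of replicates 3 and 1 overlap.

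Of 23 cadherin symbols, 2 had a cluster. CDH2, N-cadherin, the classical cadherin of mesenchymal and neural cells, had 2 clusters in replicate 2, in the exons numbered 6 and 14, with 1.57% (4 of 255) and 0.909% (2 of 220). CDH24, a type II cadherin, had 1 cluster in replicate 3 with 1.23% (2 of 163). CDH1, E-cadherin, had none.

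Counted by first name, protocadherins, adhesion proteins best known from neurons, held 12 clusters in 3 genes of 65 symbols. Each of the 12 loci was found in 1 replicate, while 16.6% of all loci were found in at least 2. The 12 clusters were shallow, with depths of 5.46 to 17.2, and 8 of them rested on 1 edited read. PCDH9 had 2, 1 and 1 clusters, of which that in replicate 2 was intronic. The highest edit fraction among protocadherins was 7.79% in exon 20 of PCDH9 in replicate 1 (6 of 77 covered C bases, interval 3.62% to 16.0%). PCDH10 had 3 clusters in replicate 1 and 2 in replicate 3. Of these, 4 lay in its intron 1 on chromosome 4 (134073972 to 134074631), at 2.94% and 5.08% in replicate 1 and at 4.48% and 5.71% in replicate 3. The 4 intronic clusters of PCDH10 neither overlap nor share a position between replicates. Clusters listed under PCDHGA10 carry 21 gene names each, because the exon numbered 28 is shared by the gamma protocadherins, and their reads cannot be assigned to 1 gene. They had 2.99% in replicate 1 and 1.55% and 3.08% in replicate 3.

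Among integrins, 4 of 18 alpha chain symbols and 1 of 9 beta chain symbols had a cluster. ITGAV, the alpha chain of receptors for vitronectin and fibronectin, was the integrin seen in every replicate, with 3, 2 and 1 clusters, all in the exon numbered 61 on chromosome 2. Its locus from 187544850 to 187544939 had 1.30% (5 of 384) in replicate 1, 0.980% (2 of 204) in replicate 2 and 1.35% (5 of 371) in replicate 3. These values lie close together, at 1.21% ± 0.200 (SD, n = 3), but rest on 3, 1 and 1 edited reads. ITGB1, the beta chain that pairs with most alpha chains named here, had 1 cluster in replicate 1 (2.66%, 11 of 413) and 2 in replicate 3 (3.42%, 5 of 146, and 2.18%, 6 of 275). No ITGB1 cluster overlapped between replicates, although the pooled edit fraction over its clusters was 2.66% and 2.61% in the replicates that had any.

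ITGA6, a laminin receptor chain, had 3 clusters in replicate 1 at 3.45% to 5.26%, and ITGA5, the fibronectin receptor chain, had 2 in replicate 3 at 0.570% and 1.02%. ITGAE, the alpha chain known from T cells that bind E-cadherin, had a single cluster, in replicate 3. This cluster was 150 bases long (chromosome 17, 3617968 to 3618117, minus strand, exon 0) and held 30 edited bases of 1530 covered C bases in 7 edited reads, or 1.96% (interval 1.38% to 2.79%). It had more edited bases than any of the other 99 member clusters and no counterpart in replicates 1 and 2. ITGAE alone thus gave 30 of the 145 member edited bases of replicate 3.

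ITGB3BP had 8 clusters, of which 6 lay in exon 0 on the minus strand of chromosome 1 at depths of 63.3 to 102.8. Its locus from 63906682 to 63906756 was found in all 3 replicates, with 0.481% (7 of 1455), 0.596% (4 of 671) and 0.672% (9 of 1340). This is the lowest mean of the 6 loci found in all replicates, 0.583% ± 0.0960 (SD, n = 3). An intronic ITGB3BP cluster in replicate 2, which carries 3 gene names, had 5.13%, but over 39 covered C bases at a depth of 88.8. That is 4.88 covered C bases per C base, or 0.0549 of the mean depth, against a median ratio of 0.997 over the 100 member clusters. Ratios under 0.5 occurred in 4 of the 100 member clusters and in 4.46% of other clusters.

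Basement membrane genes made up 11 of the 30 genes and 34 of the 100 clusters, out of 22 such symbols in the pattern (type IV collagens, laminins, nidogens, agrin and perlecan, a grouping drawn after the values were seen). They held 44, 58 and 19 edited bases in replicates 1, 2 and 3. Edit fractions in this group ranged from 0.599% to 20%, with medians of 1.76%, 1.56% and 1.45%.

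NID1, nidogen-1, which bridges laminin and type IV collagen, led the group with 11 clusters and 47 edited bases (12, 21 and 14 by replicate). All of them lay in exon 0 on the minus strand of chromosome 1 (236139326 to 236141005), which is the 3′-most exon on this strand. The locus from 236139326 to 236139430 was found in all 3 replicates. It had 0.786% in replicate 1 (5 of 636), 1.93% in replicate 2 (14 of 725) and 1.45% in replicate 3 (8 of 551). Replicate 1 was lowest, on a shorter cluster with 9 C bases against 21 and 14, and the Wilson intervals share the values from 1.15% to 1.83%. The mean read depth in replicate 1 was 72.4, against 34.7 and 37.9 in replicates 2 and 3. The mean edit fraction was 1.39% ± 0.575 (SD, n = 3). A NID1 cluster from 236140421 to 236140465 was called with the same limits in replicates 1 and 3, at 1.45% and 2.30%, each from 2 edited bases. The other 6 NID1 loci were each called in 1 replicate.

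Laminins had 11 clusters in 5 of 12 genes, 8 of them in replicate 2, and a median C content of 33.3 C bases per 100 bases. LAMB2, the laminin beta-2 chain, was found in every replicate. Its locus from 49158578 to 49158652, in exon 0 on the minus strand of chromosome 3, had 1.06% (6 of 564), 1.31% (5 of 381) and 1.22% (3 of 246) in replicates 1, 2 and 3. These are the most alike values of the 6 loci, with a ratio of highest to lowest of 1.23. From 3 to 4 reads were edited there, which are 14.3%, 12.5% and 12.5% of all reads, at depths of 18.03 to 24.1. LAMC1, the gamma-1 chain of most laminin trimers, had clusters in replicates 1 and 2 at 1.08% to 4.17%. LAMB1 (1.25% and 2.35%) and LAMA5 (0.935%) had clusters in replicate 2 only. The LAMC3 cluster, with the highest edit fraction of all member clusters, 20%, was 1 edited base over 5 covered C bases in an intron, and its interval runs from 3.62% to 62.4%.

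Collagens had 18 clusters over 9 of 44 genes and 17 loci. None of these loci was found in all 3 replicates, against 4.77% of all loci, which with so few loci does not set collagens apart. Type IV collagens, the network formers of the basement membrane, gave 10 of the 18 clusters in 4 of 6 genes. Fibrillar collagens had 2 clusters, in 2 of 11 genes (COL2A1 and COL27A1, both in replicate 1), and the difference between these subgroups was not tested. COL4A1, COL4A2, COL4A5 and COL4A6 were each seen in 2 replicates at places that did not overlap. Edit fractions of type IV collagen clusters ran from 0.831% to 7.69% at depths of 5.07 to 30.8. COL6A1, a chain of the beaded-filament collagen VI, had 2 clusters in each of replicates 2 and 3 and none in replicate 1. Its clusters from 47424836 to 47424865 (replicate 2, 1.64%, 2 of 122) and to 47424925 (replicate 3, 1.90%, 8 of 421) overlap in the exon numbered 67 on chromosome 21. COL13A1 and COL26A1 had 1 cluster each, in replicate 2.

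Of the remaining matrix genes, AGRN, the heparan sulfate proteoglycan that organizes the neuromuscular junction, had 2 clusters in replicate 2. They lay in the exons numbered 58 and 60, with 1.80% (4 of 222) and 6.98% (6 of 86, interval 3.24% to 14.4%). FN1, fibronectin, the principal ligand of the alpha-5 integrin, had 1 cluster in replicate 3 with 0.993% (4 of 403). HSPG2, NID2 and SPARC had no cluster.

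**Figure D3:**
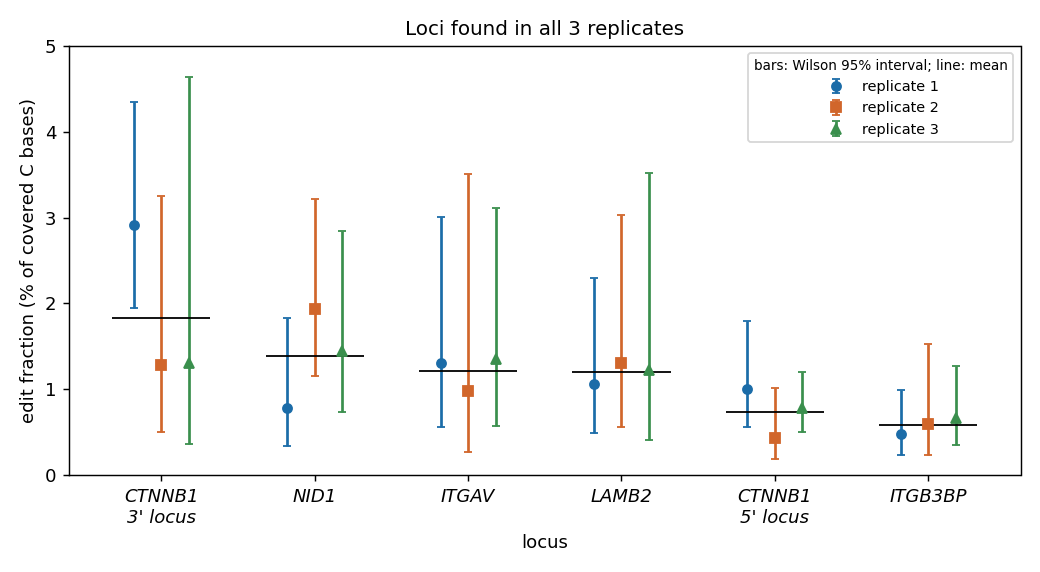
Edit fraction (% of covered C bases) at the 6 loci found in all 3 replicates, with 1 point per replicate, Wilson 95% intervals as bars and the mean as a black line; the 5′ locus of CTNNB1 starts at 41281225 and the 3′ locus at 41281495. Means run from 0.583% (ITGB3BP) to 1.84% (CTNNB1, 3′ locus), and at each locus the 3 intervals have values in common.

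Genes recurred more often than positions. Of the 84 member loci, 6 (7.14%) were found in all 3 replicates, 4 in 2 and 74 in 1, while 4.77% of all 33244 loci were found in all 3. The 4 loci of 2 replicates lie in CTNNA1, ITGB3BP, NID1 and COL6A1. At least 2 replicates shared 10 of the 84 member loci and 16.6% of all loci. Of the 30 genes, 7 (23.3%) had a cluster in each replicate, namely CTNNB1, CTNNA1, NID1, ITGAV, LAMB2, PCDH9 and ITGB3BP. Among all 9109 genes this share was 38.3%. Clusters per gene are summed over the same replicates, so a gene with fewer than 3 cannot be in each. All 4 members with 7 to 20 clusters were seen in every replicate, against 94.5% of other genes in that range. The counts were 3 of 5 members with 4 to 6 clusters, against 63.2% of others, and 0 of 12 with 2 to 3 clusters, against 11.3%. These are descriptions without a test.

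As a share of clusters, 13.2%, 14.3% and 22.2% of member clusters overlapped clusters of both other replicates, against 10.6%, 9.85% and 13.1% of other clusters. The mean difference was 5.39 ± 3.37 percentage points (SD, n = 3) and positive in 3 of 3 replicates. The exact two-sided sign-flip permutation test over 3 replicates gave p = 0.25, the smallest value that this design allows, and 0.857 after Benjamini-Hochberg adjustment over 12 measures. The shares rest on 5, 5 and 6 clusters, with Wilson intervals of 5.75% to 27.3%, 6.26% to 29.4% and 10.6% to 40.8%. The direction turned with a minimum score of 0.99, to -5.48 percentage points, and without replicate 3, to -8.54.

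The median edit fraction of member clusters was 1.86%, 1.64% and 1.53% in replicates 1, 2 and 3, or 1.68% ± 0.171 (SD, n = 3). That of other clusters was 1.63%, 1.65% and 1.80%. The difference was positive in 1 of 3 replicates, with a mean of -0.0201 ± 0.252 percentage points, so it was smaller than the spread between replicates (exact sign-flip permutation p = 0.75, adjusted 1). Measured as the fraction of edited reads, the difference was positive in 3 of 3 replicates, from 1.11 to 2.67 percentage points with a mean of 1.88 ± 0.777 (exact sign-flip permutation p = 0.25). The median depth of member clusters was lower than that of other clusters in replicates 1 and 2, by 8.15 and 4.64 reads, and higher in replicate 3 (mean difference -3.64 ± 5.08, exact sign-flip permutation p = 0.5). It was negative in 3 of 3 replicates with means over clusters (-36.6 reads) and with at least 2 edited reads (-7.52 reads; exact sign-flip permutation p = 0.25 for each). The share of clusters with 1 edited read was 28.9%, 28.6% and 18.5%, against 28.0%, 31.1% and 33.1% of other clusters (mean difference -5.36 ± 8.15 percentage points, exact sign-flip permutation p = 0.5). Replicate 3 carried most of this difference, which was -0.759 without it and turned to 1.91 with a minimum score of 0.99.

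**Figure D4:**
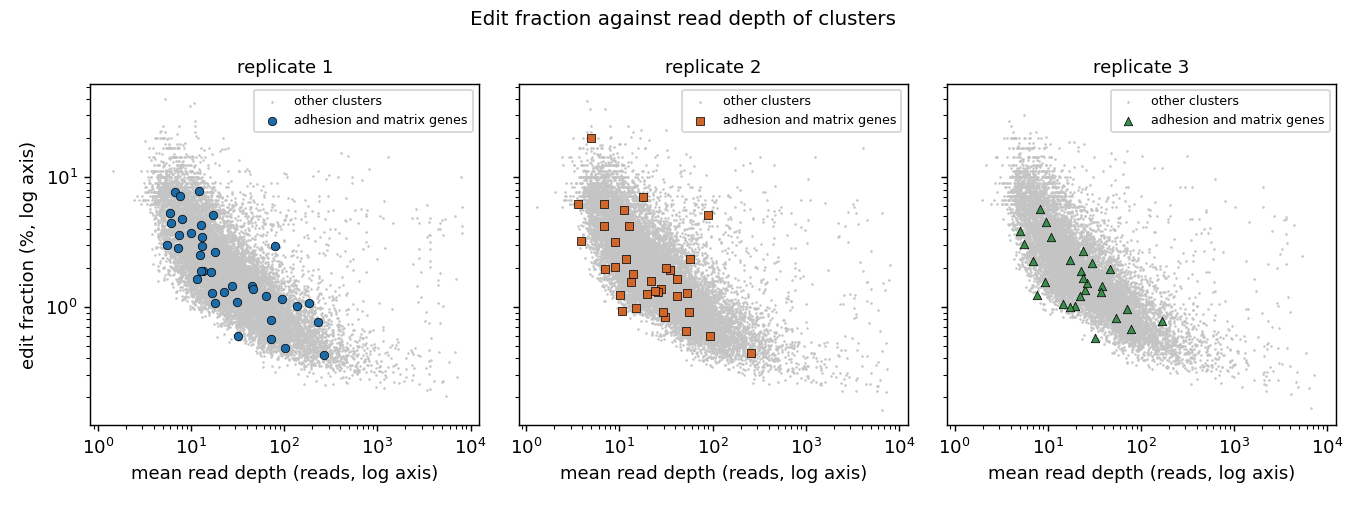
Edit fraction (%) against mean read depth (reads) of clusters, both on log axes, with 1 panel per replicate, member clusters as large symbols and other clusters in grey. Member clusters overlap the cloud of other clusters, and edit fraction falls with depth in both, with medians of members from 2.89% under a depth of 20 to 0.870% at a depth of at least 50.

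Since edit fraction falls with depth, members were also compared within depth classes. Under a depth of 20, where 51 of the 100 member clusters lie, the median edit fraction was 2.89% ± 0.533 (SD, n = 3 replicates), against 3.15% ± 0.0252 for other clusters. At 20 to 50 it was 1.39% ± 0.116 over 28 clusters, against 1.48% ± 0.0229. Among clusters of depth 50 or more it was 0.870% ± 0.0660 over 21 clusters, against 0.783% ± 0.00952, and higher in 3 of 3 replicates by 0.0124 to 0.126 percentage points (exact sign-flip permutation p = 0.25, adjusted over 3 classes 0.75). The 21 deep clusters lie in CTNNB1, CTNNA1, NID1 and ITGB3BP. Spearman's rho of depth and edit fraction across member clusters was -0.827, -0.579 and -0.623 in replicates 1, 2 and 3. These clusters, 38, 35 and 27, share libraries, and the filter used separate background rates by depth class. Only called clusters have a value, and over few covered C bases 1 edited base already gives a high fraction (LAMC3, 1 of 5, 20%). Low fractions at low depth could thus hardly appear among called clusters. How far the calling sets the fall with depth was not tested.

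Of the 100 member clusters, 7 were intronic. Of 44 exonic clusters on the minus strand, 30 lay in exon 0, which is the last exon of such a gene. These were 12 of 15, 7 of 14 and 11 of 15 clusters in replicates 1, 2 and 3, or 80%, 50% and 73.3%, against 63.4%, 58.6% and 60.2% of other minus-strand exonic clusters. The difference was positive in 2 of 3 replicates (mean 7.05 ± 13.7 percentage points, exact sign-flip permutation p = 0.5), and without NID1 it was -4.26. On the plus strand none of 49 exonic clusters lay in exon 0. An annotation of the last exon was not used here, so no share at the 3′ end is given for that strand. On the minus strand CDH2, CDH24, COL4A6, LAMA5 and PCDH9 had exonic clusters but none in exon 0. Intronic clusters were 2, 3 and 2 in number, in PCDH10, PCDH9, ITGB3BP and LAMC3. Their share of 7.08% ± 1.68 (SD, n = 3) was above the 2.07% ± 0.320 of other clusters in 3 of 3 replicates (exact sign-flip permutation p = 0.25, adjusted 0.857). Of the 7, 4 lie in PCDH10, and these are all the intronic clusters of replicates 1 and 3. In those replicates the higher share thus rests on this gene alone.

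In 26 member clusters a single read carried every edit, and 22 of these had more than 1 edited base in that read. Such clusters with several edited bases in a single read were no more frequent among members than elsewhere. They made up 23.7%, 22.9% and 18.5% of member clusters in replicates 1, 2 and 3, against 23.7%, 25.8% and 27.8% of other clusters. COL4A5, a type IV collagen chain, gave the extreme values, with 9 and 6 edited bases in 1 edited read of 17 in each of 2 clusters of replicate 1 (107940608 to 107940712 and 107939603 to 107939722 on chromosome X). An ITGB1 cluster of replicate 3 had 6 edited bases in 1 read of 43, and the ITGAV locus found in all replicates had 5 in 1 read of 38 in replicate 3. Edited bases per edited read were 1.63, 1.35 and 1.88 over member clusters, against 1.59, 1.67 and 1.66 over others. Of member clusters with 1 edited read, 2 of 26 belonged to a locus found in all 3 replicates, and of those with at least 4 edited reads, 12 of 23 did. The same split of other clusters by edited reads is not given, so this is not shown to be particular to members. Other clusters overlapped clusters of both other replicates in 2.06%, 1.88% and 4.11% of cases under a depth of 20. At a depth of at least 50 these shares were 25.6%, 23.8% and 30.6%. The 5 clusters with at least 7 edited reads lie in CTNNB1, CTNNA1 and ITGAE.

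Genes that act beside the members were counted from a list of 45, comprising catenin-related and desmosomal proteins, integrin adaptors, collagen-modifying enzymes, matrix proteins and large cadherins. Of these, 12 had clusters in all 3 replicates, 10 in 2, 9 in 1 and 14 in none. Thus 31 of the 45 had a cluster, beside 38.2% of all protein-coding symbols and 30 of the 184 member symbols. The list was chosen with earlier results of these data known, so this is a description only. Of the 31 genes with a cluster, 38.7% thus had clusters in each replicate, close to the 38.3% of all genes with a cluster. Of their 114 loci, 4 (3.51%) were found in all 3 replicates, against the 4.77% of all loci. These lie in DSP (desmoplakin), PTK2 (focal adhesion kinase), LIMS1 (an adaptor of integrin-linked kinase) and P4HA2 (a collagen prolyl hydroxylase). In PTK2 no base was common to all 3 replicates, whose clusters join through overlaps of 2 replicates at a time. CTNND1, p120-catenin, which binds the juxtamembrane part of cadherins, had 4, 9 and 3 clusters with 32, 40 and 18 edited bases, but none of its 11 loci was found in all 3 replicates. DAG1, dystroglycan, a laminin and agrin receptor, had 4, 5 and 2 clusters. No cluster was found for FAT3, FAT4, DCHS1, CELSR1, TNC, THBS1, FBN1, VCAN, LOX, PLOD1, GPC1, ZYX, TLN2 and TNS3.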

How the data were processed

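RNA editing was measured in 3 replicates of 1 group. As far as the methods and the submitters' processing notes state, reads were aligned with STAR to hg19, edited positions were called with SAILOR, which removes common SNPs, and FLARE was run with windows of 30 bases, kept at an adjusted p-value of 0.1 and merged over up to 15 bases. Background rates were set separately for exons, introns and depth classes. The counts deposited by the authors (reads, edited reads, C bases, covered C bases and edited bases of each cluster) are unscaled whole numbers. The edit fraction given by the authors equalled edited over covered C bases in all 3 files, and the fraction of edited reads is given by the authors per cluster as well. Mean read depth is a coverage signal deposited by the authors and not scaled to library size, and the score deposited by the authors is a cumulative probability between 0 and 1.

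Values were computed in Python 3.11.15 using pandas 2.3.3, NumPy 2.4.6 and SciPy 1.17.1, and plotted using matplotlib 3.10.9. Deposited starts were read as 0-based and are printed 1-based. Same-strand clusters sharing at least 1 base were matched. Differences between member and other clusters were taken within a replicate and tested with exact sign-flip permutation tests over replicates, since clusters are not replicates. Cluster pairs of different replicates with the same limits numbered 575, 438 and 505, of which 0, 2 and 0 had the same counts, so no replicate was a copy. Named were all loci found in all 3 replicates, the 2 genes with the most loci of each family, the 5 genes with the most edited bases and ITGB3BP. Further genes were named after their values were seen. The members and lists were chosen with earlier results of these data known. The code was tested on simulated data. Alternatives were scores from 0.95 or from 0.99, depths from 50, at least 2 edited reads, an overlap of 50%, means, the fraction of edited reads, other sets of clusters and leaving out each replicate. Joining clusters up to 15 or 100 bases apart and the exon 0 comparison with its alternatives were added after the values were seen.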

Additional observations from a re-analysis of the deposited data

Results flagged for a closer look

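One cluster outside the 100 carries a name of the pattern as its second name, ITGB1P1, a pseudogene of the beta-1 integrin, after EMR3. It lies in introns of both names on chromosome 19 from 14732369 to 14732428, was called in replicate 3 only, and held 7 edited bases of 486 covered C bases (1.44%). All 7 edited bases come from 1 edited read of 43. It is listed because it is a signal outside the clusters counted, and control samples were not analysed here.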

How the results depend on the processing

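There is 1 group, so samples could not be paired between conditions. Member and other clusters were compared within each replicate. Of 117 recomputed values of 16 results, 87 stayed, 20 moved and 10 turned in sign. Staying meant within the spread, within 1.5 times the count or in the same direction. Of the 69 values not from leaving out a replicate, 43 stayed, 18 moved and 8 turned in sign. Leaving out 1 of 3 replicates cannot shift a locus mean by its SD, so those locus values had to stay. The fraction of edited reads is on another scale, so moves there say little. With a minimum score of 0.99, clusters per replicate fell to 20, the share found in all 3 replicates to 5.22%, and loci found in all 3 from 6 to 1. The median edit fraction then rose to 2.48%, and the differences from other clusters turned, to -5.48 percentage points in that share, 0.208 in the median edit fraction and 1.91 in the share with 1 edited read. At a depth of at least 50, 7 clusters and 3.67 genes per replicate were left, with 24.8% found in all 3 replicates, a median of 0.870% and a difference in median of 0.0869. With at least 2 edited reads, the median was 1.44% and its difference 0.0178. For scores from 0.95 upward that difference was 0.0288, and with the fraction of edited reads the median was 7.63% and the difference 1.88, positive in each replicate. As the fraction of edited reads, the loci found in all 3 replicates had means of 2.87% and 5.87% (CTNNB1), 4.91% (ITGAV), 3.38% (ITGB3BP), 13.1% (LAMB2) and 7.92% (NID1). An overlap of 50% left a share of 7.08%, and the mean over clusters was 2.45%. Without NID1 the exon 0 difference was -4.26. Leaving out each replicate gave shares found in all those left of 13.7% to 28.5%, differences in that share of -8.54 (without replicate 3) to 7.19, and differences in median edit fraction of -0.144 to 0.107 (without replicate 3). The difference in the share with 1 edited read was then -8.52 to -0.759 (without replicate 3). The difference in depth kept its sign in the mean but reached -36.6 with means over clusters. The cause of these changes was not tested. With 3 replicates no test could pass the threshold, and depths under 20, where 51 of the 100 clusters lie, limit the precision of single clusters.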
